A study of Mus musculus with 4 samples.

Results

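Bone mineral forms where phosphate meets calcium in a permissive matrix, and 9 genes that act at that step or mark the cells that oversee it were read out here: Mepe, Dmp1, Phex, Sost, Alpl, Enpp1, Phospho1, Slc20a1 and Slc20a2. They were taken by symbol from the 53703 features of the deposited matrices by a rule that uses no measured value, and the list itself was drawn up with earlier results of these data known. Each symbol matched 1 feature. Their levels were compared between Lats2 mutant and control mice in osteoblast, osteocyte-like, metaphyseal stromal and hypertrophic cells.

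Mineral starts in small vesicles and on collagen once the mineral inhibitor pyrophosphate has been removed. Enpp1 makes pyrophosphate outside the cell, Alpl (tissue non-specific alkaline phosphatase) hydrolyses it to phosphate, Phospho1 releases phosphate inside matrix vesicles, and Slc20a1 and Slc20a2 (PiT-1 and PiT-2) are sodium-coupled phosphate transporters. Osteocytes, the osteoblast-derived cells buried in bone, express Dmp1 and Mepe, matrix phosphoproteins of the SIBLING family, Phex, a membrane endopeptidase that acts on such proteins and restrains the phosphate-wasting hormone Fgf23, and Sost, whose product sclerostin inhibits Wnt signalling in osteoblasts. Hypertrophic chondrocytes, at the base of the growth plate, mineralize cartilage with much of the same machinery.

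The 4 libraries were single-cell RNA-seq preparations of the metaphysis of femur and tibia from 12-week-old mice, after depletion of lineage-positive, CD45-positive and CD117-positive hematopoietic cells. The 2 mutant libraries, labelled Lats2iECKO, came from animals carrying Cdh5(PAC)-CreERT2 and Lats2 lox/lox, and the 2 control libraries from littermates without the Cre transgene. Both groups received tamoxifen on 5 consecutive days at 4 to 5 weeks of age. The Cdh5 promoter drives the recombinase in endothelial cells (ECs), so none of the cell classes described here is the one in which the deletion was induced. The number of animals behind a library is not given in the sources used here. The p-values measure the spread between 2 libraries a group, with the spread of each gene drawn toward that of all genes in the fit. Fits without the gene filter can understate that spread, as named below for osteoblasts.

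The libraries held 69636600 to 85899079 UMIs (unique molecular identifiers, each standing for 1 captured RNA molecule), and 5125 to 6833 barcodes a library passed the filters on cells. Cells were placed in a class by marker genes that include no member gene. The gates found 102 and 108 osteoblast cells in the mutant libraries and 577 and 604 in the controls, 7 and 14 against 35 and 33 osteocyte-like cells, 207 and 255 against 557 and 561 metaphyseal stromal cells, and 536 and 527 against 143 and 142 hypertrophic cells. In ECs, Lats2 was at 90.6 and 96.6 CPM (UMI counts scaled to a fixed library total) in the mutants and at 123 and 119 CPM in the controls, and CreERT2 was at 52.4 and 48.3 CPM against 0.65 and 0.90 CPM. No barcode of the 4 classes was shared between libraries. Of the genes that gate them, the osteocyte-like cells held Dkk1, Irx5, Pdpn and Ptprz1 in every library. Fgf23 was at 0 in all 4 and Wnt1 was above 0 only in mutant 2. As the gate selects on this list, these values are no separate check of identity. Below, values are CPM of the summed counts of a class in 1 library. They are given as mutant 1 and mutant 2 against control 1 and control 2. A log2 fold change is mutant over control from edgeR. Its standard error (SE) was worked back from the fold change and the F statistic of the edgeR test. The 3′ kit counts RNA ends, so CPM is not scaled by gene length.

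In control bone Phex, Dmp1 and Sost peaked in osteocyte-like cells, while Alpl and Slc20a2 peaked in other classes. Phex was highest in osteocyte-like cells at 3117 ± 239 CPM (SD, n = 2), followed by osteoblasts at 197 CPM, hypertrophic cells at 136 CPM, diaphyseal stromal cells at 96.6 CPM and metaphyseal stromal cells at 39.6 CPM. Dmp1 had the same 2 leading classes, 844 ± 87.7 CPM (SD, n = 2) in osteocyte-like cells and 123 CPM in osteoblasts. Sost was near absent outside osteocyte-like cells, where it stood at 40.2 ± 26.5 CPM (SD, n = 2). None of the other 8 classes exceeded 0.62 CPM in the control mean, and none of the 1391 osteoblasts of the 4 libraries held a Sost UMI, which allows a share of cells with a UMI of up to 0.216% (counting error only) and does not bound the share that expresses the gene. Alpl was led instead by the cartilage and stromal side: hypertrophic cells at 2511 ± 44.9 CPM (SD, n = 2), metaphyseal stromal cells at 1352 CPM, other chondrocytes at 668 CPM, osteoblasts at 415 CPM and osteocyte-like cells at 175 CPM. Slc20a2 was the metaphyseal stromal gene of the set, at 501 ± 15.2 CPM (SD, n = 2) against 84.7 CPM in the next class, mural cells.

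**Figure D1:**
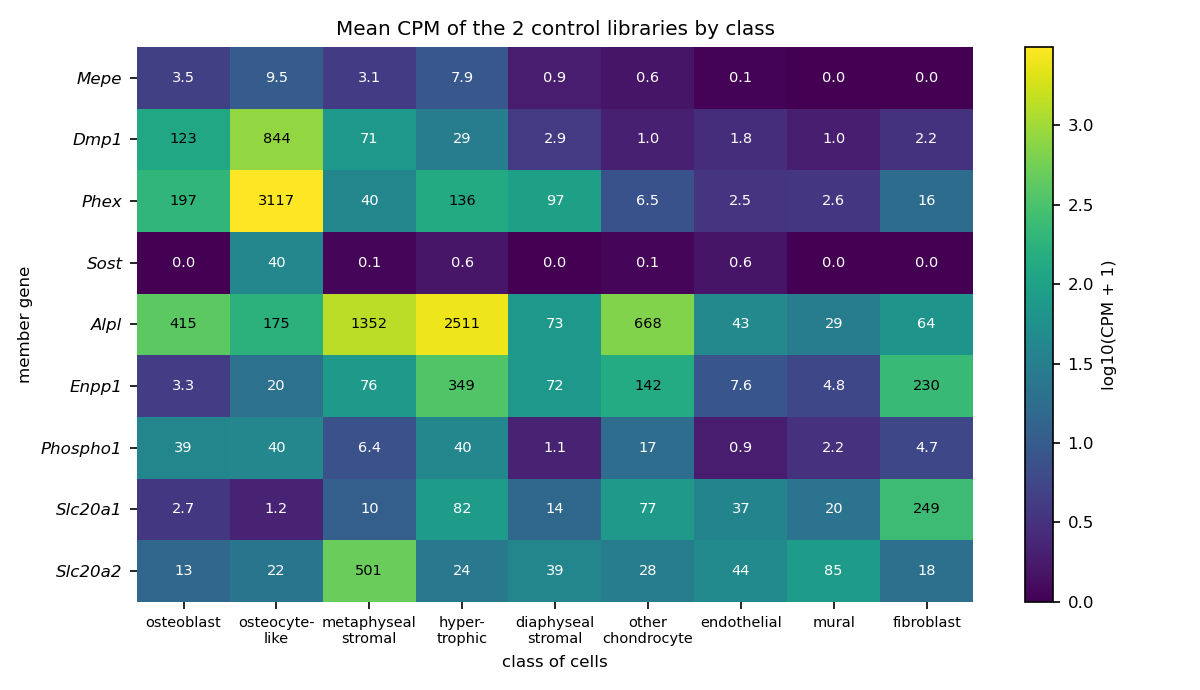
Level of the 9 members in the control libraries for the 4 classes and 5 reference classes, as the mean CPM of 2 libraries, printed in each cell and coloured by log10(CPM + 1). Phex, Dmp1 and Sost peak in osteocyte-like cells, Alpl in hypertrophic cells at 2511 CPM and Slc20a2 in metaphyseal stromal cells at 501 CPM.

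The remaining genes were less tied to the bone classes. Phospho1 stood at 40.4 CPM in hypertrophic, 40.1 CPM in osteocyte-like and 39.4 CPM in osteoblast cells, which overlapped between libraries. Enpp1 was highest in hypertrophic cells at 349 CPM, then fibroblasts at 230 CPM, with metaphyseal and diaphyseal stromal cells not separable at 76.2 and 72.3 CPM. Slc20a1 was led by fibroblasts at 249 CPM. Mepe was low in these classes, at 9.54 CPM in osteocyte-like cells and 7.90 CPM in hypertrophic cells, and the control libraries of these 2 classes overlapped. It was higher in 2 small sets of control barcodes that can share members. In a cluster of 9 and 16 barcodes that no marker list named it was at 945 and 1212 CPM. In the 5 and 7 barcodes with osteocyte markers but little Col1a1 it was at 183 and 963 CPM. The cluster was formed apart from the gates, and 9 of its 255 barcodes over the 4 libraries lay in the osteocyte-like gate.

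In hypertrophic cells transcripts of the mineralization enzymes were lower in the mutants. Alpl, Phex, Enpp1 and Phospho1 fell, at 4 of the 6 members tested, beside 46.5% of the 7013 genes tested in this class that passed the test in either direction and 22.9% that were lower. Phex and Phospho1 passed the filter on low genes through the controls only, with a UMI in 8.21% and 9.30% of mutant cells against 58.7% and 52.1% for Phex and in 18.1% and 18.2% against 30.8% and 31.0% for Phospho1, so the count of falls is partly set by that filter. Slc20a1 and Slc20a2 did not pass the test, and Mepe, Dmp1 and Sost were under the filter on low genes.

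Alpl stood at 673 and 663 CPM in the mutants and at 2480 and 2543 CPM in the controls, 3.76-fold lower in the mutant mean (log2 fold change -1.86, SE 0.07, edgeR adjusted p = 7.6e-08). The groups were far apart and the 2 libraries of each group lay close together. A UMI of Alpl was seen in 43.3% of hypertrophic cells in both mutants and in 95.8% and 88.7% in the controls. Mutant hypertrophic cells were also shallower, with a median of 10104 and 9998 UMIs against 16766 and 16980. After each cell was thinned to 3000 UMIs the shares were 33.8% and 33.3% against 90.1% and 84.0%. ECs gave 11.3% and 9.16% against 7.31% and 7.97% at the same depth, under the hypertrophic shares of both groups. ECs had a median of 5378 to 6726 UMIs before thinning and an Alpl level of 34.9 to 52.7 CPM, so they are a class with little Alpl and not one without it.

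Phex had the largest fall among the members that passed the filter. It was at 19.9 and 31.6 CPM in the mutants and at 141 and 131 CPM in the controls, 5.27-fold lower (log2 fold change -2.34, SE 0.17, edgeR adjusted p = 3.4e-06). Enpp1, whose product opposes Alpl, fell as well, from 376 and 322 CPM to 136 and 169 CPM (log2 fold change -1.14, SE 0.12, edgeR adjusted p = 4.2e-05). Thus the transcripts of the enzyme that makes pyrophosphate and of the one that removes it were both lower. Phospho1 stood at 19.0 and 17.4 CPM against 36.3 and 44.6 CPM (log2 fold change -1.10, SE 0.16, edgeR adjusted p = 3.6e-04).

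Of the transporters, Slc20a1 was at 48.7 and 52.5 CPM against 54.1 and 110 CPM (log2 fold change -0.64, edgeR adjusted p = 0.052) and Slc20a2 at 24.3 and 24.5 CPM against 16.4 and 32.1 CPM. The control libraries were well apart for both, and the values moved with them. Without control 1 the log2 fold change was -1.07 for Slc20a1 and -0.35 for Slc20a2, and without control 2 it was -0.04 and 0.63. Slc20a1 passed in 6 of 14 alternatives. It passed with the stricter gate (log2 fold change -0.84, edgeR adjusted p = 0.014) and with clusters in place of gates (-0.44, adjusted p = 0.026). It did not pass in the cluster shared by both genotypes, described below (-0.01, adjusted p = 0.99). Markers of other cell types moved with the class too. The 6 osteoblast markers, all detected in every library, summed to 458 and 500 CPM in mutant hypertrophic cells and to 1294 and 1458 CPM in controls, the 5 chondrocyte markers to 22843 and 23214 against 39767 and 40740 CPM, and the 3 hypertrophic markers to 25800 and 26136 against 28660 and 26382 CPM. Other lists ran the opposite way. The 6 fibroblast markers, of which 4 to 6 were detected, summed to 497 and 598 CPM in the mutants against 68.3 and 153 CPM, and the 10 osteocyte-like markers, of which 9 were detected, to 804 and 830 CPM against 463 and 469 CPM. The part of these in the member results was not tested.

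**Figure D2:**
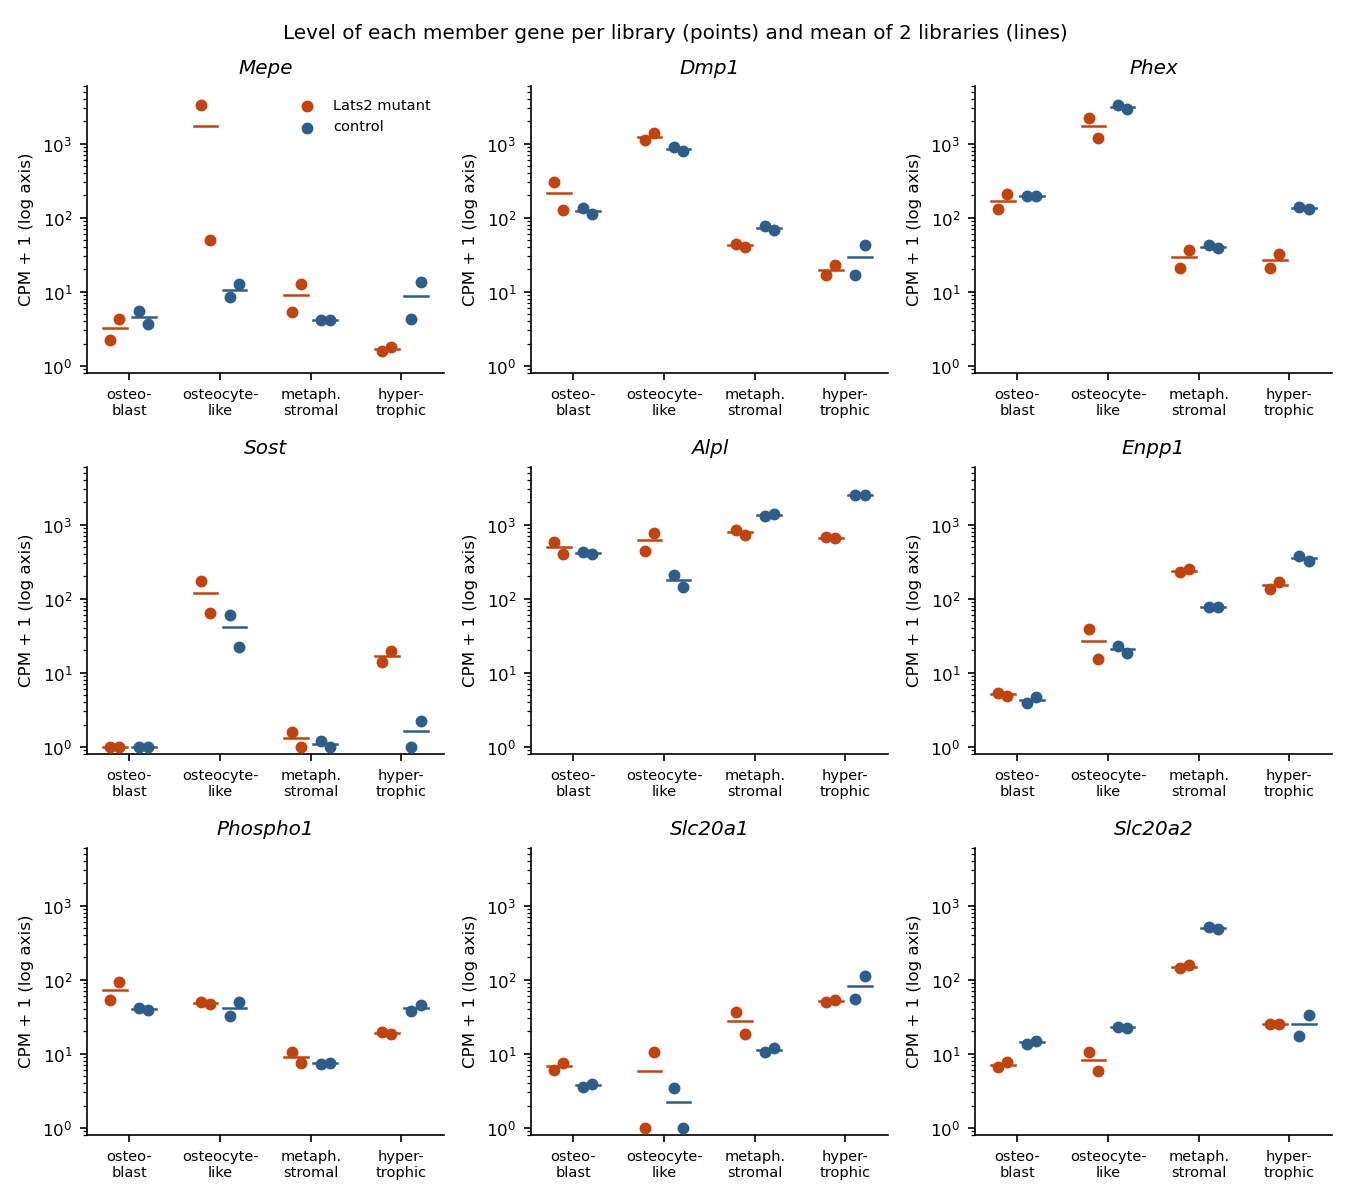
CPM + 1 of each member in each of the 4 classes on a log axis, with each point 1 library (mutants orange, controls blue) and each line the mean of 2. In hypertrophic cells both mutant points lie below both control points for Alpl, Phex, Enpp1 and Phospho1, and in metaphyseal stromal cells Enpp1 runs the other way.

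The 4 genes that fell together in hypertrophic cells have unlike start regions. The 250 bases before the RefSeq start of each are printed 5′ to 3′ on the gene's strand, from the GRCm38.p6 build, so that their base content can be compared. Capitals mark matches to the RUNX core TGTGGT or its reverse complement ACCACA, the TEAD core GGAATG or CATTCC, and the hypoxia-response core ACGTG or CACGT, all searched on both strands. Adjoining CACGT and ACGTG matches overlap as CACGTG.
Alpl, chr4:137796385-137796634, minus strand: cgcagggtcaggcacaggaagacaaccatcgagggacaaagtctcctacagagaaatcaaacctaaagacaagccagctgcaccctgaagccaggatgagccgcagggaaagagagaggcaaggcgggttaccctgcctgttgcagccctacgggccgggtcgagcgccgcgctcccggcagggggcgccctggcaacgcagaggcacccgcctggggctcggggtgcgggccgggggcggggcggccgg
Phex, chrX:157415287-157415536, minus strand: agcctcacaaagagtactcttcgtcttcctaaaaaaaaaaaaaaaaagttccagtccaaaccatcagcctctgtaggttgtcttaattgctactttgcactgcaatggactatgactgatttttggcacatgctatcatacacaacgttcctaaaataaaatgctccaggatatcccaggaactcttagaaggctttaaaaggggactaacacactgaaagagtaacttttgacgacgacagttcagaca
Enpp1, chr10:24712160-24712409, minus strand: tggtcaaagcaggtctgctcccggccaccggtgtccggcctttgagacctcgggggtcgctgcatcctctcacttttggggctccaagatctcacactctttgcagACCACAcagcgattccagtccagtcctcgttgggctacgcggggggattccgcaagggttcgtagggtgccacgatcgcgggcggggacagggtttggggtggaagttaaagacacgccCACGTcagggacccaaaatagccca
Phospho1, chr11:95824250-95824499, plus strand: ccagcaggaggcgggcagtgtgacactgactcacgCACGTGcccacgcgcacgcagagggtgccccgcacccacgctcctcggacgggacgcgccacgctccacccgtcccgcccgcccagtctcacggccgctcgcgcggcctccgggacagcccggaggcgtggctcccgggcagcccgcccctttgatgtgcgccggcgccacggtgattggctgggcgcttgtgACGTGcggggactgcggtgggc

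The Phospho1 region held 75.6% G and C, the Alpl region 68.4%, the Enpp1 region 61.2% and the Phex region 39.2%, against a median of 52.4% over all 32851 promoter entries. Enpp1 held the RUNX core 144 bases before the start, a string found in 14.0% of all entries, and the ACGTG core 25 bases before it. Phospho1 held the ACGTG core at 22 bases and as CACGTG at 215 bases, and 16.6% of all entries hold that core. No TEAD core, found in 12.6% of entries, was in these 4 windows. A second Alpl start has its own entry and also held none of the 3 strings. RefSeq entries were matched for 8 of the 9 members, and Slc20a2 was without one.

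Most mutant hypertrophic cells fell in another expression cluster than the control ones. Cells were clustered with the 9 member genes left out, and cluster 3, led by Ptgs2, Pde11a, Dkk1, Ihh and Col10a1, held 80.6% and 80.5% of the mutant hypertrophic cells and 0% and 1.4% of the control ones. Cluster 9, led by Matn1, Cited1 and Panx3, held 12.1% and 11% of the mutant cells and 93.0% and 80.3% of the controls. In cluster 3, Alpl was at 193 and 236 CPM and Phex at 8.47 and 17 CPM in the mutants. In cluster 9 the genotypes lay closer. Alpl was at 2168 and 1862 CPM against 2544 and 2879 CPM (log2 fold change -0.39, edgeR adjusted p = 0.021), Phex at 55.2 and 96.3 CPM against 147 and 149 CPM (log2 fold change -0.94, edgeR adjusted p = 1.1e-03), and Enpp1 at 212 and 287 CPM against 383 and 338 CPM (log2 fold change -0.49, edgeR adjusted p = 0.015). Within that shared cluster 11.3% of 7558 genes passed the test. Phospho1 did not, at 37.5 and 29.5 CPM against 38.2 and 48.2 CPM (log2 fold change -0.32, edgeR adjusted p = 0.41), though both mutants lay below both controls.

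**Figure D3:**
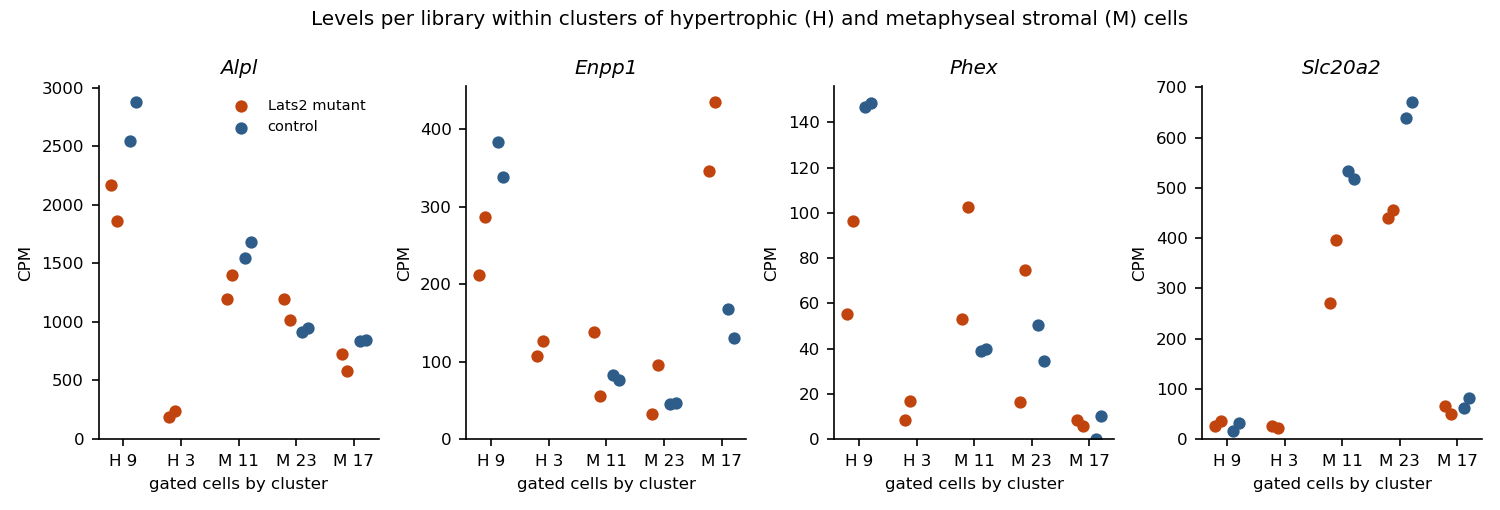
CPM (linear axis from 0) of Alpl, Enpp1, Phex and Slc20a2 per library in gated hypertrophic (H) and metaphyseal stromal (M) cells, split by cluster number, with mutants in orange, controls in blue and no control points for H 3. In hypertrophic cluster 9 Alpl reaches 1862 to 2879 CPM in both genotypes, while in cluster 3, where the mutant cells gather, it is at 193 and 236 CPM.

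Metaphyseal stromal cells changed in Alpl, Enpp1 and Slc20a2, all 3 of the members that passed the filter on low genes, beside 29.2% of the 6081 genes tested in this class, 15.4% higher and 13.7% lower. Slc20a2, the phosphate transporter that marked this class in control bone, fell from 512 and 490 CPM to 143 and 155 CPM, 3.37-fold lower (log2 fold change -1.69, SE 0.09, edgeR adjusted p = 3.2e-08). A UMI was seen in 30.0% and 34.5% of mutant cells against 64.1% and 64.4% of control cells, and in 18.9% and 21.3% against 50.2% and 48.9% after thinning. Alpl fell from 1299 and 1405 CPM to 847 and 722 CPM (log2 fold change -0.73, SE 0.10, edgeR adjusted p = 5.2e-05). Enpp1 rose from 77.1 and 75.2 CPM to 228 and 249 CPM, 3.13-fold higher (log2 fold change 1.71, SE 0.09, edgeR adjusted p = 1.3e-08). In these cells the transcript of the pyrophosphate-making enzyme was higher and that of the pyrophosphate-removing enzyme lower. The groups did not overlap for either, as for 66.6% of all genes tested in the class.

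The 6 members under the filter have values from the fit without it, in which 1.81% of genes passed. The smallest adjusted p among them was that of Dmp1, which stood at 42.8 and 39.7 CPM against 75.1 and 67.3 CPM (edgeR adjusted p = 0.052), Phex at 20.2 and 36.2 CPM against 41.3 and 37.9 CPM, and Slc20a1 at 35.5 and 17.2 CPM against 9.66 and 10.9 CPM. Mepe, Phospho1 and Sost were below 12 CPM in every library. The class markers moved with genotype. The 7 metaphyseal stromal markers summed to 3517 and 3201 CPM against 6415 and 6098 CPM, the 6 fibroblast markers to 676 and 716 CPM against 212 and 218 CPM, and the 6 osteoblast markers to 3751 and 6143 CPM against 7299 and 7175 CPM. The 3 hypertrophic markers summed to 99.7 and 103 CPM against 45.9 and 40.1 CPM, the 5 chondrocyte markers to 499 and 431 CPM against 289 and 318 CPM, the 3 mural markers to 161 and 63.6 CPM against 19.3 and 24.5 CPM, and the 10 osteocyte-like markers, of which 8 to 9 were detected, to 406 and 338 CPM against 220 and 198 CPM. Their part in the member results was not tested.

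Here too the clusters divided the genotypes. Cluster 17, led by Mmp9, Megf10, Tnfsf11 and Postn, held 56.5% and 51.4% of the mutant metaphyseal stromal cells and 3.9% and 4.3% of the control ones, and cluster 11, led by Hs3st5, Nlgn1 and Angpt4, held 21.7% and 23.1% against 64.3% and 64.5%. In cluster 17 the mutant libraries had 346 and 436 CPM of Enpp1 against 167 and 130 CPM, and Slc20a2 was low in both genotypes at 64.9 and 49.9 CPM against 62.8 and 82.7 CPM. In cluster 11, Slc20a2 was at 271 and 397 CPM against 533 and 517 CPM (log2 fold change -0.60, edgeR adjusted p = 0.035), where 2.57% of 6276 genes passed. Neither Alpl (log2 fold change -0.28, edgeR adjusted p = 0.15) nor Enpp1 (log2 fold change 0.27, edgeR adjusted p = 0.66) passed there, and Phex did in the other direction, at 53.1 and 103 CPM in the mutants against 39.1 and 40.0 CPM (log2 fold change 1.06, edgeR adjusted p = 0.038). That value rests on 45 and 59 mutant cells, and over the whole class Phex was under the filter on low genes, with a UMI in 10.1% and 12.9% of mutant and 16.9% and 18.4% of control cells. Which genotype took Phex over the filter in this cluster was not examined, so the p-value of Phex there is not taken as a call.

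**Figure D4:**
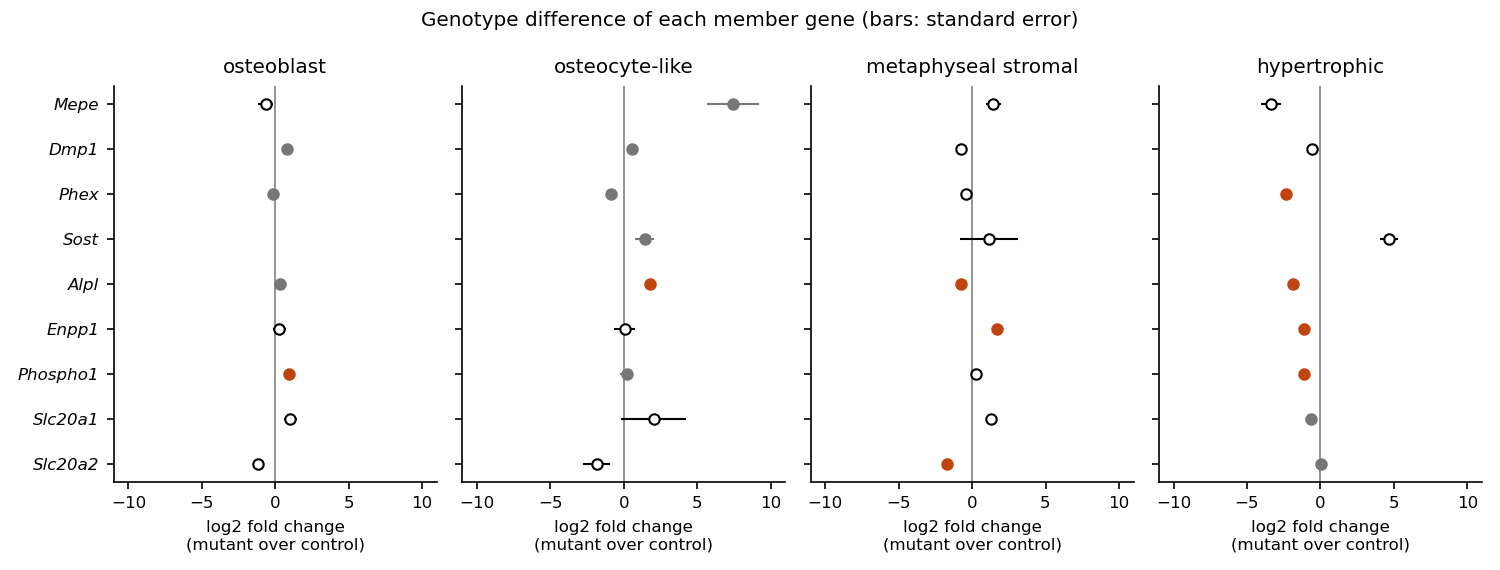
Log2 fold change of each member, mutant over control, in the 4 classes, with bars of 1 standard error. Orange points passed the test, grey points did not, and open points are members under the filter on low genes, from the fit without it. Hypertrophic cells reach -2.34 for Phex and -1.86 for Alpl, and Enpp1 lies at 1.71 in metaphyseal stromal and -1.14 in hypertrophic cells.

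In osteoblasts Phospho1 was the member that changed. It rose from 40.3 and 38.6 CPM to 52.8 and 92.5 CPM (log2 fold change 0.95, SE 0.17, edgeR adjusted p = 0.010), 1 of 4 members tested, beside 3.18% of 6295 genes that passed in either direction and 2.53% that were higher. The 2 mutant libraries were themselves well apart, and without mutant 2 the log2 fold change was 0.49 with an adjusted p of 0.19. Alpl stood at 581 and 406 CPM against 428 and 401 CPM (log2 fold change 0.30, SE 0.12, edgeR adjusted p = 0.27). Dmp1 stood at 298 and 125 CPM against 135 and 110 CPM (log2 fold change 0.82, SE 0.25, edgeR adjusted p = 0.11), and Phex at 130 and 207 CPM against 197 and 196 CPM (edgeR adjusted p = 0.63). Mutant 1 was high in Dmp1 and Alpl and low in Phex, and the values of these 3 genes rested on that library. Without mutant 1 the log2 fold changes were 0.060 for Dmp1, 0.0022 for Alpl and 0.11 for Phex, with edgeR adjusted p from 0.64 to 0.99, and without mutant 2 they were 1.35, 0.55 and -0.53 and passed the test, with mutant 1 as the only library of its group. Clusters in place of gates gave an adjusted p of 0.049 for Dmp1 and 0.0070 for Alpl. The fit without the gene filter gave Dmp1 a log2 fold change of 0.72 with an SE of 0.09, against 0.25 with the filter. Its mutant libraries stood at 298 and 125 CPM, so that fit understated the spread between libraries. The p-value of Dmp1 from that fit is therefore not taken as a call.

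In the fit without the filter, in which 2.36% of genes passed, Slc20a2 was lower at 5.67 and 6.64 CPM against 12.5 and 14.0 CPM (log2 fold change -1.16, edgeR adjusted p = 7.4e-03), and Slc20a1, at 5.04 and 6.53 CPM against 2.59 and 2.87 CPM, did not pass (edgeR adjusted p = 0.26). As that fit understated the spread of Dmp1, these p-values are read with the same caution. The 13 and 22 control osteoblasts that fell in the metaphyseal stromal cluster 11 held Slc20a2 at 282 and 250 CPM, where the mutants had 0 and 2 such cells, while in the main osteoblast cluster it was at 6.0 and 3.63 CPM against 8.20 and 6.52 CPM. Both transporters were low in osteoblasts next to the stromal and cartilage classes. Enpp1 was at 2.90 to 4.41 CPM and Mepe at 1.26 to 4.47 CPM. The 6 osteoblast markers summed to 257954 to 270250 CPM in the 4 libraries, and the 3 hypertrophic markers, all detected in each, to 57.9 and 52.2 CPM in the mutants against 18.3 and 18.9 CPM. The part of the latter in the member values was not tested. The median depth of osteoblasts was 11855 and 14055 UMIs against 19028 and 19944.

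Osteocyte-like cells were few, and the 7 cells of mutant 1 set the limit on what can be read from them. Alpl was higher in the mutants, at 445 and 778 CPM against 206 and 144 CPM (log2 fold change 1.82, SE 0.30, edgeR adjusted p = 0.038), 1 of 6 members tested, beside 0.917% of 3816 genes that passed in either direction and 0.681% that were higher. Of the Alpl counts, 72.3% in mutant 1 and 60.7% in control 1 came from 1 cell each. It did not pass with a stricter gate, with a stricter cell filter, without control 2, or with clusters in place of gates (edgeR adjusted p = 0.57). In the osteocyte-like cluster mutant 1 was at 12.0 CPM, below the controls at 94.1 and 142 CPM, and mutant 2 at 527 CPM above them, so the mutant libraries did not share a direction there. The log2 fold change of Alpl was 3.53 with the stricter gate, 1.45 with the stricter cell filter, 1.57 without control 2 and 1.19 with clusters, against 1.82, so a lost call is not in each case a smaller value. The 3 hypertrophic markers, of which 2 to 3 were detected, summed to 152 and 72.9 CPM in the mutants against 44.3 and 13.8 CPM, the 10 osteocyte-like markers, of which 8 to 9 were detected, to 4206 and 4662 CPM against 6002 and 5322 CPM, and the 6 osteoblast markers to 169461 and 102322 CPM against 160439 and 177217 CPM. Their part in the Alpl value was not tested. Phex stood at 2207 and 1201 CPM against 3286 and 2948 CPM (log2 fold change -0.84, edgeR adjusted p = 0.29), Dmp1 at 1108 and 1386 CPM against 906 and 782 CPM (edgeR adjusted p = 0.25), and Sost at 171 and 63.2 CPM against 58.9 and 21.5 CPM (edgeR adjusted p = 0.34). For these 3 the groups did not overlap, which also held for 44.7% of all genes tested in the class. Sost and Mepe passed the filter on low genes through the mutants only, with a UMI of Sost in 42.9% and 21.4% of cells against 8.57% and 6.06%, and of Mepe in 28.6% and 21.4% against 8.57% and 9.09%. Of the Dmp1 counts of mutant 1, 94.9% came from 1 cell. The direction of Dmp1 turned with clusters in place of gates (log2 fold change -0.10) and with the stricter gate (-0.95), and in the osteocyte-like cluster the groups overlapped, at 72.2 and 1254 CPM in the mutants against 770 and 627 CPM. Mepe, at 3363 and 48.6 CPM against 7.37 and 11.7 CPM (edgeR adjusted p = 0.099), likewise owed 94.1% of the counts of mutant 1 to 1 cell, so the fits that left out mutant 2 or a control, in which it passed, say no more than that cell does. It passed in 6 of 12 alternatives, all with mutant 1, and without mutant 1 its log2 fold change was 2.20 against 7.46. The osteocyte-like cluster held 57.1% of the gated cells of each mutant library and 82.9% and 93.9% of those of the controls. Mepe in those gated cells was at 0 and 9.79 CPM against 5.64 and 12.2 CPM. With 1 library left in a group, its spread is assumed to be that of the other group. In such fits the log2 fold change was -1.45 for Phex and 0.64 for Dmp1 without mutant 1, and 2.26 and 2.30 for Sost without mutant 2 and without control 1. These pass the threshold, and are given as values of single libraries, not as calls gained. Phospho1 was at 31.7 to 49.4 CPM with overlapping groups.

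Sost, the sclerostin gene, was found in mutant bone mainly outside the osteocyte-like gate. Over all kept barcodes it stood at 10.6 and 9.83 CPM in the mutants against 0.53 and 0.31 CPM in the controls. In the controls 64.9% and 50% of its UMIs lay in osteocyte-like cells. In the mutants 3.2% and 2.2% did, while 56.8% and 46.7% lay in barcodes that no gate took, 18.2% and 27% in other chondrocytes and 14.7% and 19.7% in hypertrophic cells. Hypertrophic cells held 12.9 and 18.6 CPM against 0 and 1.25 CPM, or 200 UMIs against 3 that came from 1 cell. The ratio of pooled CPM was 25.3 with an exact 95% interval of 8.5 to 123.8 for counting error only. The fit without the filter, in which 12.3% of genes passed, gave an edgeR adjusted p of 1.5e-03 for it. In cluster 9, where most control hypertrophic cells lay, Sost was at 0 CPM in all 4 libraries. In cluster 3 the gated mutant cells held 19.8 and 27.3 CPM. Control 1 had 0 gated cells there, and control 2 had 2, at 475 CPM. The part of the cluster difference in the Sost values of this class was not tested. A UMI was seen in 5.22% and 6.07% of mutant hypertrophic cells and in 0 of 143 and 0.70% of control ones, where 0 of 143 allows a share of cells with a UMI of up to 2.10%. ECs held 1.29 and 1.51 CPM against 0.82 and 0.36 CPM, well below the hypertrophic cells of the mutants.

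Barcodes with at least 2 Sost UMIs numbered 62 and 71 in the mutants and 4 and 4 in the controls. In the mutants 53 and 61 of them lay in cluster 3, the cluster that also held most mutant hypertrophic cells. Their median Col10a1, the hypertrophic collagen, was 2028 and 1717 CPM, their median Ihh 776 and 827 CPM, and their median Col1a1, the bone collagen, was 0 in both. In the controls, with 4 such barcodes a library, the median Col1a1 was 52307 and 40968 CPM and the median Col10a1 was 0 in both. Of these, 3 and 2 lay in the osteocyte-like gate and 1 and 2 in cluster 3. In control 2 the median Ihh was 385 CPM and the median of the cartilage collagen Col2a1 was 4745 CPM, against 3036 and 3545 CPM in the mutants, so cartilage transcripts were not limited to the mutant barcodes. Dkk1, a Wnt inhibitor among the osteocyte-like gate genes, was at 161 and 182 CPM in mutant hypertrophic cells and at 4.5 and 0.8 CPM in control ones.

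Mepe was concentrated in a handful of barcodes in every library. Barcodes with at least 2 Mepe UMIs numbered 17 and 22 in the mutants and 23 and 22 in the controls, and held 96.6%, 90.2%, 67.1% and 79.3% of all Mepe UMIs of their libraries. They were spread over classes, with 0 and 1 of them osteoblasts in the mutants and 10 and 4 in the controls. A single barcode of mutant 1 held 334 of the 712 UMIs. In hypertrophic cells Mepe was at 0.61 and 0.80 CPM against 3.28 and 12.5 CPM, from 9 UMIs against 38, of which 30 were in control 2 and 53.3% of these in 1 cell (fit without the filter, log2 fold change -3.39, edgeR adjusted p = 0.013). Dmp1, a phosphoprotein gene of the same family, was at 15.7 and 22 CPM against 16 and 41.7 CPM there and did not pass (edgeR adjusted p = 0.43). Dmp1, Ibsp, Mepe and Spp1 lie in this order on mouse chromosome 5 (GRCm39), with Dmp1 at chr5:104345340-104361974 and Mepe at chr5:104473195-104486477.

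**Figure D5:**
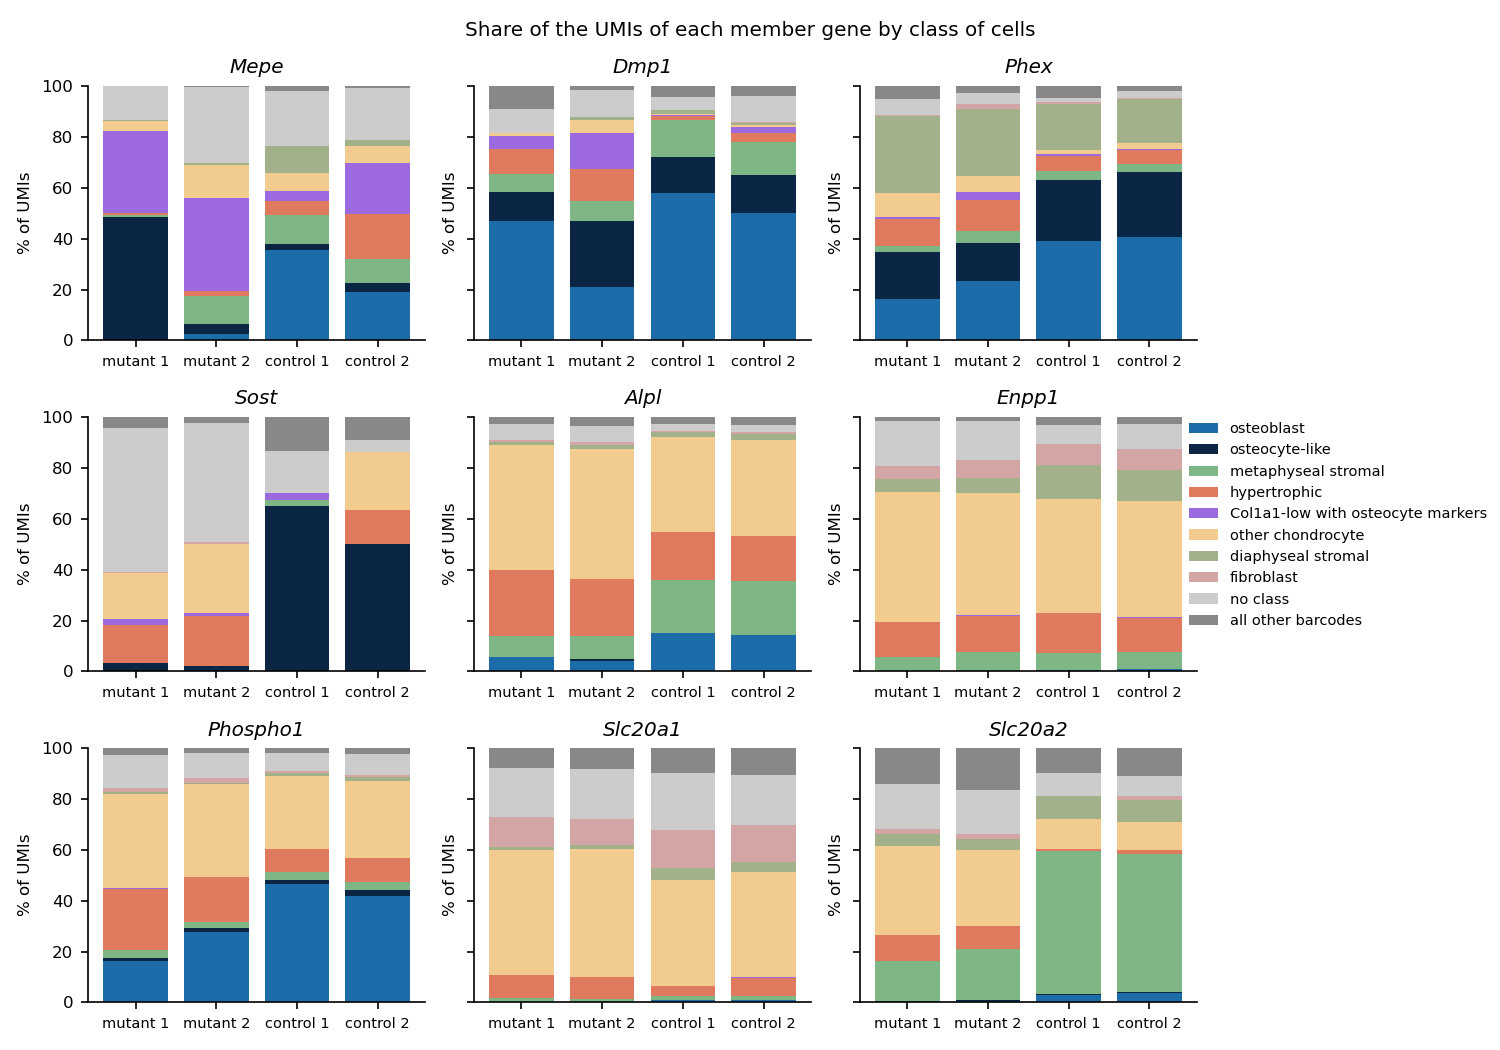
Share of each member's UMIs, in percent of all kept barcodes of a library, that came from each class, for the 4 libraries. Sost lies mostly in osteocyte-like cells in the controls at 64.9% and 50%, and in barcodes without a class in the mutants at 56.8% and 46.7%.

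The classes that supplied a transcript over the whole preparation differed between the groups as well. Metaphyseal stromal cells supplied 15.4% and 20.4% of Slc20a2 UMIs in the mutants and 56.2% and 54.3% in the controls. Osteoblasts supplied 16.3% and 23.2% of Phex UMIs against 39.1% and 40.6%, and 16.4% and 27.8% of Phospho1 UMIs against 46.7% and 42.0%. Over all kept barcodes Phex was at 23.5 and 27.4 CPM against 81.2 and 83.3 CPM, Slc20a2 at 28.1 and 28.7 CPM against 66.6 and 65.7 CPM, and Enpp1 at 122 and 124 CPM against 85.1 and 82.1 CPM. In such sums, fewer cells of a class and less RNA per cell cannot be told apart.

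The genotype effect on a member differed between classes in 10 of 21 tests, each a difference of log2 fold changes in 1 fit over 8098 genes. Against osteoblasts, hypertrophic cells had lower effects on Alpl (-2.11, edgeR adjusted p = 1.5e-05), Phex (-2.13, adjusted p = 3.3e-06), Phospho1 (-2.0, adjusted p = 4.2e-04) and Enpp1 (-1.46, adjusted p = 0.028), beside 23% of genes in that contrast. Against metaphyseal stromal cells they had lower effects on Enpp1 (-2.84, edgeR adjusted p = 8.8e-07), Phex (-1.92, adjusted p = 2.0e-05), Slc20a1 (-1.97, adjusted p = 3.4e-03) and Alpl (-1.12, adjusted p = 6.6e-04) and a higher effect on Slc20a2 (1.76, adjusted p = 3.9e-04), beside 22.7% of genes. Metaphyseal stromal cells differed from osteoblasts in Alpl alone among the members (-0.99, edgeR adjusted p = 9.7e-03), beside 3.93% of genes, and Enpp1 did not pass (1.39, adjusted p = 0.055). The largest of the 21 differences was that of Enpp1, which rose in metaphyseal stromal cells and fell in hypertrophic cells. In other chondrocytes, which were not in this fit, Enpp1 averaged 155 CPM in the mutants and 142 CPM in the controls. The call on Enpp1 against osteoblasts was lost without mutant 1, mutant 2 or control 1, that on Slc20a1 without mutant 1, and that on Alpl between stroma and osteoblasts without either control. A gene entered this fit through any class, and 3 of the 10 calls involve a class where the gene was under the filter on low genes: Enpp1 in osteoblasts, at 7 and 7 UMIs in the mutants, and Phex and Slc20a1 in metaphyseal stromal cells. The differences of Phex and Phospho1 also rest on genes that passed the filter in hypertrophic cells through the controls only.

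A list of 24 other genes of mineral handling was read out in the same fits. In hypertrophic cells 10 of the 15 tested fell and 2 rose, beside 22.9% of all genes tested that were lower and 23.5% that were higher, with a median log2 fold change of -0.54 against -0.008 over all genes tested. Smpd3, the neutral sphingomyelinase of cartilage and bone mineralization, fell from 987 and 1057 CPM to 301 and 301 CPM (log2 fold change -1.71, edgeR adjusted p = 3.2e-07). Fam20c, the kinase that phosphorylates matrix proteins of the SIBLING family (log2 fold change -1.36, edgeR adjusted p = 1.6e-05), and Spp1, which encodes osteopontin (log2 fold change -1.22, edgeR adjusted p = 2.7e-05), fell too. Anxa2, a matrix vesicle annexin (log2 fold change 0.91, edgeR adjusted p = 2.3e-05), and Nt5e, which turns AMP to adenosine and phosphate (log2 fold change 0.28, edgeR adjusted p = 0.032), rose. The part of the cluster and marker differences of this class, given above, was not tested.

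In metaphyseal stromal cells 8 of 13 listed genes rose and the other 5 did not pass, beside 15.4% of all genes that were higher, with a median of 0.41 against -0.009 over all genes. The 8 were Mgp, Ank, Anxa2, Fam20c, Anxa5, Ibsp, Spp1 and Anxa6, which include both inhibitors of mineral and proteins linked to its formation. Mgp, the matrix Gla protein that keeps cartilage and vessels free of mineral, rose from 546 and 677 CPM to 5092 and 6408 CPM (log2 fold change 3.29, edgeR adjusted p = 2.5e-09). Ank, which lets pyrophosphate out of the cell, rose from 130 and 128 CPM to 321 and 407 CPM (log2 fold change 1.57, edgeR adjusted p = 2.2e-07), and Anxa2 rose by a log2 fold change of 1.02 (edgeR adjusted p = 9.8e-07). Ank thus moved the same way as Enpp1 in this class. Clusters and marker sums of this class differed between genotypes as given above, and their part in these changes was not tested.

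In osteoblasts 3 of 14 listed genes rose and 1 fell, beside 2.53% of all genes that were higher and 0.651% that were lower, with a median of 0.032 against 0.005. Spp1 (log2 fold change 0.68, edgeR adjusted p = 0.039), Ibsp, which encodes bone sialoprotein (0.53, adjusted p = 0.038), and Pth1r, the parathyroid hormone receptor (0.41, adjusted p = 7.5e-03), rose. The mutant libraries were well apart for Spp1, at 1312 and 2305 CPM against 1163 and 1171 CPM. They were also apart for Ibsp, at 3749 and 2649 CPM against 2419 and 2186 CPM. Smpd3 fell (-0.52, adjusted p = 8.3e-04). In osteocyte-like cells the smallest edgeR adjusted p of the 15 tested was 0.090, for Spp1 at 27878 and 3672 CPM against 1047 and 246 CPM.

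Across the 36 sums of 9 classes in 4 libraries, the genes whose log2(CPM + 1) followed each member most closely were sought among 6791 genes at 50 CPM or more in at least 1 sum. The sums share libraries, so r is a description. Dmp1 was followed by Ccn4 (r = 0.94), Mlip (0.92) and Bmp3 (0.91), and Phex by Hipk2 (0.89), the gate gene Irx5 (0.88) and Wipi1 (0.86). Sost was followed by Bend5 (0.82), the gate gene Dkk1 (0.81) and Art1 (0.81), and Mepe by Pabpc4 (0.81), Ergic2 (0.79) and Dmp1 (0.75). On the enzyme side, Alpl was followed by Sdc3 (0.90), Tmie (0.90) and Pak1 (0.89), Phospho1 by Cgref1 (0.93), Sparc (0.92) and Col11a1 (0.92), and Enpp1 by Mir99ahg (0.90), Adgra3 (0.88) and Ank (0.87). The transporters had no close partner among the members. Slc20a1 was followed by Creb5 (0.95), Il16 (0.95) and Hbegf (0.92), and Slc20a2 by Nav2 (0.87), Snw1 (0.82) and Angpt4 (0.78). Between members the closest pairs were Dmp1 and Phex (0.83), Dmp1 and Phospho1 (0.76), Mepe and Dmp1 (0.75), and Alpl and Phospho1 (0.72).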

How the data were processed

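Single-cell RNA-seq (10x Chromium, 3′ kit) was made from 2 mutant and 2 control libraries. The authors trimmed reads with cutadapt 3.5 and aligned them with STARsolo 2.7.10a to mm39 with GENCODE genes and added transgene sequences. Multi-mapped reads were shared out by expectation maximization, so the deposited values are unnormalized expected counts (9.09% to 9.95% of entries were fractional) in matrices not filtered for cells.

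Barcodes with at least 1000 UMIs, 800 genes, at most 15% mitochondrial and 5% hemoglobin counts and a complexity of at least 0.8 were kept, 24648 in all. Doublets were not called with a tool, and barcodes that passed the gates of 2 lineages, 66 to 159 a library, were left out. Cells were gated on UMI shares of marker lists without member genes. Osteoblasts were gated by the sum of Bglap, Bglap2 and Bglap3 together with Col1a1. Osteocyte-like cells were gated by at least 4 of 10 osteocyte markers, also with Col1a1. Metaphyseal stromal cells were gated by at least 3 markers, and hypertrophic cells by Col10a1 with chondrocyte markers. Of the cells in these classes 51 of 1391, 20 of 89, 105 of 1580 and 160 of 1348 lay within 1.5 times of the cut. Leiden clusters (scanpy 1.11.5, resolution 1.5, no integration) used no member gene.

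Counts were summed per class and library, rounded, and tested with edgeR 4.0.16 (R 4.3.3) quasi-likelihood. Genes had to pass edgeR's count filter and be found in 20% of the cells of either genotype. A call is a Benjamini-Hochberg adjusted p of at most 0.05 over all genes of the fit. Differences between classes came from 1 fit with library as a term, for classes with at least 10 cells a library. An exact permutation test of 2 against 2 libraries cannot go below p = 0.333 and was not used. Named were all members, the up to 3 called genes of the pathway list with the largest change each way in a class, and the 3 genes most like each member. Members, gates and lists were chosen with earlier results of these data known. Alternatives are given in the closing section. Intervals and floors (3 counts) cover counting error only.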

Additional observations from a re-analysis of the deposited data

Results flagged for a closer look

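The genotype effect differed between classes for 10 member comparisons, by a test of the difference of log2 fold changes (edgeR adjusted p of at most 0.05). Between hypertrophic and osteoblast cells these were Alpl (-2.11), Phex (-2.13), Phospho1 (-2.0) and Enpp1 (-1.46). Between hypertrophic and metaphyseal stromal cells they were Enpp1 (-2.84), Slc20a1 (-1.97), Phex (-1.92), Alpl (-1.12) and Slc20a2 (1.76). Between metaphyseal stromal cells and osteoblasts it was Alpl (-0.99). A large share of all genes passed as well in both contrasts with hypertrophic cells, so a passing member is not unusual there. The number of tests and the share of genes for each contrast are given in the Results. The calls on Enpp1 against osteoblasts, on Slc20a1, and on Alpl between stroma and osteoblasts were lost when certain single libraries were left out.

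Sost stood at 33.5 and 26 CPM in the barcodes of the 2 mutant libraries that no gate took, which entered no comparison between gated classes, against 0.64 and 0.11 CPM in such barcodes of the controls.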

How the results depend on the processing

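Over the alternatives, 219 of 260 member values and 108 of 126 differences between classes kept their direction and side of the threshold. Slc20a2 in metaphyseal stromal cells and Alpl, Phex and Enpp1 in hypertrophic cells passed in every one of 14 alternatives, while Alpl and Enpp1 in metaphyseal stromal cells and Phospho1 in hypertrophic cells were lost in the shared cluster alone. DESeq2 called 82 genes in osteoblasts (200 with edgeR), 944 in metaphyseal stromal cells (1775) and 2114 in hypertrophic cells (3258), and 2 members in osteocyte-like cells (1). Without the gene filter 597, 254 and 471 genes were called in osteoblast, osteocyte-like (35) and metaphyseal stromal cells, with 3 members in osteoblasts and 2 in osteocyte-like cells. Those fits had an SE of 0.09 for Dmp1 in osteoblasts, against 0.25 with the filter. For Mepe in osteocyte-like cells it was 0.47, against 1.78. Clusters in place of gates gave 441 genes and 3 members in osteoblasts and 13 genes and 0 members in osteocyte-like cells, where Dmp1 turned to -0.10. The stricter gate gave 1 gene and 0 members in osteocyte-like cells, with Dmp1 at -0.95, and 1017 genes in metaphyseal stromal cells. Subtracting free RNA gave 53 genes in osteocyte-like cells, and the stricter cell filter 0 members. Chosen after seeing the data, gating osteocyte-like cells on the marker list alone gave 543 genes and 3 members, with Phospho1 at -0.25, the shared metaphyseal cluster gave 161 genes, with Phex at 1.06, and the shared hypertrophic cluster gave 857. With 2 pairs and deviations of same-numbered libraries correlated at -0.043 to 0.013, the replicate numbers were not shown to pair libraries, and the replicate block gave 2 members in osteoblasts and 6 genes and 0 members in osteocyte-like cells. Leaving out each library in turn, which leaves 1 library in a group and takes its spread from the other, gave 70 to 287 genes and 1 to 3 members in osteoblasts, 69 to 635 genes (635 without mutant 1) and 1 to 3 members in osteocyte-like cells, 1025 to 1821 genes and 3 members in metaphyseal stromal cells, 1962 to 3301 genes and 4 to 5 members in hypertrophic cells, and 8 to 11 differences between classes. The range of log2 values over these fits crossed 0 for Phex in osteoblasts (-0.53 to 0.11), Phospho1 in osteocyte-like cells (-0.080 to 0.32), Slc20a2 in hypertrophic cells (-0.35 to 0.63), the stroma-osteoblast differences of Slc20a1 (-0.44 to 0.89) and Phospho1 (-1.21 to 0.17), and the difference of Dmp1 between hypertrophic and metaphyseal stromal cells (-0.45 to 1.08). In fits with 2 libraries a group, Phex in the shared cluster was the only value of turned sign that passed the test. Its p-value is not taken as a call, as stated in the Results. Where a count moved, the cause was not tested.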

Other observations

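Cluster 24, of 255 barcodes, was named by no marker list and was led by Trib3, Ankrd37, Mt2, Spp1, Ero1a and Cd44. Mepe in it was at 918 and 180 CPM in the mutants and 945 and 1212 CPM in the controls. These values were above the osteocyte-like gate in all but mutant 1. Of the cluster's barcodes, 9 lay in the osteocyte-like gate, so the cluster and the gate share cells. Barcodes with osteocyte markers but little Col1a1 numbered 13 and 16 in the mutants and 5 and 7 in the controls, and Alpl in them averaged 107 CPM over the mutant libraries (SD 74.3, n = 2) and 661 CPM over the controls (SD 106, n = 2). These Alpl values rest on 10 and 7 counts in the mutants and 16 and 26 in the controls, from 2 to 3 cells a library, and 92.3% of the counts of control 2 came from 1 cell.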
